A study of Mus musculus with 2 samples.

Results

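The genes described here are the 4 MEF2 transcription factors, Mef2a, Mef2b, Mef2c and Mef2d, and the 4 class IIa histone deacetylases, Hdac4, Hdac5, Hdac7 and Hdac9. They were taken by symbol from the gene and transcript tables of both libraries, and all 8 had a row among 55536 genes. Total RNA was sequenced from gastrocnemius, a muscle of the calf. The mice were B6CASTF1/J females aged 36 days, and each library started from 300 ng of RNA. The mice are hybrids of the B6 and castaneus strains, carry no engineered allele and received no treatment that the labels name. The series is 1 group of 2 libraries, called replicate 1 and replicate 2 as in the labels. Separate animals are not stated in the labels, and the spread between the libraries may therefore be technical in part. The gene tables summed to 37735700 expected counts in replicate 1 and 40656200 in replicate 2, to 6 digits. No condition can be tested and no p-value is given.

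MEF2 proteins are MADS-box factors that bind A/T-rich sites in front of many muscle genes. Class IIa deacetylases have no DNA-binding domain of their own: an N-terminal segment binds MEF2 and brings corepressors, chiefly the Hdac3 complex with Ncor1, to MEF2 sites. Kinases of the calcium-calmodulin, protein kinase D, salt-inducible and AMP-activated families phosphorylate the deacetylases, 14-3-3 proteins then bind them, and they leave the nucleus. In skeletal muscle this switch is known for its effect on slow, oxidative fibre genes.

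MEF2 pre-mRNA is spliced at a few conserved places, and the sequences there are shown first because the 3 expressed factors used them differently. Directly after the coding region of the MADS box and MEF2 domain, which ended at coding base 258 in Mef2a, Mef2c and Mef2d alike, each gene has a pair of alternative exons of which a transcript normally carries 1. In transcript order they are called the first and the second exon of the pair. Sequences were read from GENCODE M21 transcripts (mm10), 5′ to 3′ on the coding strand. The first exons are printed, with capitals for the 65 bases aligned and identical in all 3 genes.
Mef2a first exon, chr7:67268269-67268400, minus strand: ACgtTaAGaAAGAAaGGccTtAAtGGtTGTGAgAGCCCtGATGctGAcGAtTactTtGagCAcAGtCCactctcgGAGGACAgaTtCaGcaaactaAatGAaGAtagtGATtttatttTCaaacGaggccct
Mef2c first exon, chr13:83625265-83625408, plus strand: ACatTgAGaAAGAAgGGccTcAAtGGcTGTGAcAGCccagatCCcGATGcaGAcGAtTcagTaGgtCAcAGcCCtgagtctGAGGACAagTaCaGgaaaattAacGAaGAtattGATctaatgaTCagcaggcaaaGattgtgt
Mef2d first exon, chr3:88158034-88158171, plus strand: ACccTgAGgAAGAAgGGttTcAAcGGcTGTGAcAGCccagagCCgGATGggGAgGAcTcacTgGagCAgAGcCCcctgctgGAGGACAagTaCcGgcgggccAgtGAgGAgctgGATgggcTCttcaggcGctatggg

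The first exons are 132, 144 and 138 bases long in Mef2a, Mef2c and Mef2d. The first exons of Mef2a and Mef2c were identical at 65.3% of the longer exon, those of Mef2c and Mef2d at 63.9%, and those of Mef2a and Mef2d at 54.3%. Between genes, the second exons of Mef2c and Mef2d, 138 and 135 bases long, were identical at 65.2% of the longer exon. Within a gene, the first and second exons were identical at 62.5% in Mef2c and 53.6% in Mef2d. Comparisons with the second exon of Mef2a are not reported here. The values given therefore do not show which exon of the pair is more alike between genes.

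A short cassette further downstream, the beta exon, codes for a few residues, acidic ones among them, and is known to raise MEF2 activity. It is printed in capitals between 15 bases of its neighbouring exons. It is 24 bases long in Mef2a and Mef2c, which match at 17 of them, and 21 bases long in Mef2d.
Mef2a beta exon, chr7:67244521-67244544, minus strand: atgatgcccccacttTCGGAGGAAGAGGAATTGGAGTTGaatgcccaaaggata
Mef2c beta exon, chr13:83654598-83654621, plus strand: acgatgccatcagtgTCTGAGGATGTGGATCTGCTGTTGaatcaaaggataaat
Mef2d beta exon, chr3:88161781-88161801, plus strand: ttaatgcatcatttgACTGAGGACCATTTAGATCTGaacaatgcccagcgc

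Mef2c was the most abundant of the 8 genes. Gene coordinates are those of GENCODE M21 on mm10. Levels are given in TPM, the share of transcripts scaled to a fixed total, which correct for transcript length and allow genes of a library to be compared. The 7SL RNA genes Rn7s1 and Rn7s2 took 34.0% of TPM in replicate 1 and 27.7% in replicate 2. All other genes therefore shared a smaller part of the total in replicate 1. Mef2c (ENSMUSG00000005583.16, chr13:83504034-83667080) stood at 152 TPM (replicate 1) and 140 TPM (replicate 2), a mean of 146 ± 8.41 TPM (SD, n = 2 here and for all means below). A gene is called detected here when both libraries reach a TPM of 1. The Mef2c mean lay above 96.3% of the 10828 detected genes, whose median was 7.20 TPM. Its expected counts were 18067 in replicate 1 and 17101 in replicate 2.

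Mef2d (ENSMUSG00000001419.17, chr3:88142372-88172086) followed at 65.3 TPM (replicate 1) and 68.1 TPM (replicate 2), a mean of 66.7 ± 1.99 TPM. Mef2a (ENSMUSG00000030557.17, chr7:67231163-67372858) stood at 32.5 TPM (replicate 1) and 28.99 TPM (replicate 2), a mean of 30.7 ± 2.47 TPM. Each of these factors is made in developing and adult striated muscle, and the values of the 3 did not overlap. Mef2c was 2.19 times Mef2d, and Mef2d was 2.17 times Mef2a, by mean TPM.

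Mef2b (ENSMUSG00000079033.10, chr8:70139711-70167488), which is best known from lymphoid cells, had 2 counts in replicate 1 and 4 in replicate 2. That is 0.06 TPM (replicate 1) and 0.11 TPM (replicate 2), and a floor of 3 counts would read 0.09 TPM in replicate 1, so no ratio is given. It was the 1 member not detected. The other 7 were, as were 45.2% of all protein-coding genes. Mef2b lies on the same strand as the overlapping gene Borcs8, which had 99 counts (replicate 1) and 132 counts (replicate 2), so even these few reads may not all be its own. Of 8 B cell markers, Cd22, Cd79a, Cd79b, Ms4a1, Pax5 and Bank1 had between 1 and 7 counts in either library. Ebf1, which other cells of connective tissue and fat also make, had 566 counts (replicate 1) and 498 counts (replicate 2).

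Hdac5 and Hdac4 led the deacetylases. Hdac5 (ENSMUSG00000008855.17, chr11:102194432-102230166) stood at 26.4 TPM (replicate 1) and 30.8 TPM (replicate 2), a mean of 28.6 ± 3.16 TPM. Its 2 values overlapped those of Mef2a, so the order of this pair was not settled by the gene table. Hdac4 (ENSMUSG00000026313.16, chr1:91928779-92195699), which is induced in denervated muscle, stood at 18.4 TPM (replicate 1) and 17.0 TPM (replicate 2), a mean of 17.7 ± 0.976 TPM.

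Hdac7 and Hdac9 were low. Hdac7 (ENSMUSG00000022475.19, chr15:97792664-97844502), known for its roles in endothelium and thymocytes, stood at 3.97 TPM (replicate 1) and 4.63 TPM (replicate 2), from 365 counts (replicate 1) and 460 counts (replicate 2). Hdac9 (ENSMUSG00000004698.10, chr12:34047580-34917095), itself a MEF2 target in muscle, stood at 1.15 TPM (replicate 1) and 2.28 TPM (replicate 2), from 139 counts (replicate 1) and 246 counts (replicate 2). Only 8.97% of detected genes lay below Hdac9. By mean TPM, Hdac5 was 1.62 times Hdac4, Hdac4 was 4.12 times Hdac7 and Hdac7 was 2.51 times Hdac9, and none of these neighbours overlapped.

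**Figure D1:**
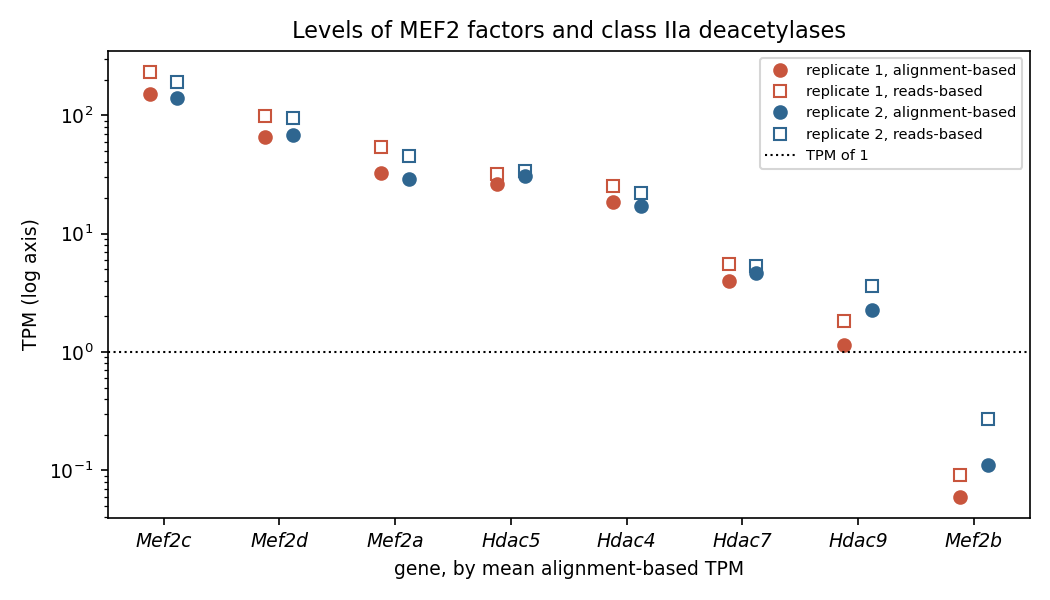
TPM of the 8 genes on a log axis, with replicate 1 left of replicate 2, filled circles from the gene table and open squares from the transcript table made directly from the reads; the dotted line marks a TPM of 1. The levels fall from Mef2c at 152 TPM (replicate 1) and 140 TPM (replicate 2) to Mef2b at 0.06 TPM (replicate 1) and 0.11 TPM (replicate 2), and the open squares lie above the circles for all 8 genes.

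The family sums showed far more MEF2 than class IIa RNA. The 4 MEF2 genes summed to 249.6 TPM (replicate 1) and 237.1 TPM (replicate 2), and the 4 deacetylases to 49.9 TPM (replicate 1) and 54.8 TPM (replicate 2). Mef2c held 60.8% (replicate 1) and 59.0% (replicate 2) of MEF2 TPM, Mef2d 26.2% (replicate 1) and 28.7% (replicate 2), and Mef2a 13.02% (replicate 1) and 12.23% (replicate 2). As a share of counts, Mef2c held 62.2% in replicate 1 (Wilson 95% interval 61.6 to 62.7) and 60.2% in replicate 2 (59.6 to 60.8). These intervals do not overlap, but they and every interval below cover counting error only, since PCR copies of a molecule cannot be recognised in these reads. Hdac5 held 52.9% of class IIa TPM in replicate 1 and 56.3% in replicate 2, and Hdac4 36.9% (replicate 1) and 31.1% (replicate 2). By counts Hdac4 held 44.0% (replicate 1) and 38.4% (replicate 2), and Hdac5 43.3% (replicate 1) and 45.7% (replicate 2). Their order by counts thus differed between the libraries.

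Much of the Hdac5 signal did not come from coding transcripts. In the alignment-based table, transcripts annotated as retained introns held 51.1% of Hdac5 TPM in replicate 1 and 45.5% in replicate 2. In the reads-based table they held 37.4% (replicate 1) and 31.9% (replicate 2), below the coding share of 44.4% (replicate 1) and 44.3% (replicate 2). The mean alignment-based share of retained introns was 48.3%. Only 2.28% of 8153 detected coding genes with more than 1 transcript class had a higher alignment-based share, and their median was 3.64%. The reads-based share was not ranked among genes. The leading coding transcript, Hdac5-204, held 7.43 TPM (replicate 1) and 7.64 TPM (replicate 2). The leading retained introns, Hdac5-217 and Hdac5-211, are 650 and 754 bases long. Hdac5-211 held 4.34 TPM (replicate 1) and 4.00 TPM (replicate 2), but 0.859 TPM (replicate 1) and 0 TPM (replicate 2) in the reads-based table. Short transcripts weigh heavily in TPM: by counts the retained introns held 19.9% (replicate 1) and 16.6% (replicate 2). Over full-length coding transcripts alone, Hdac5 stood at 9.33 TPM (replicate 1) and 9.86 TPM (replicate 2), and Hdac4 at 6.46 TPM (replicate 1) and 6.26 TPM (replicate 2).

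Hdac4 had a like pattern with another class. Processed transcripts without a coding region held 44.7% of its TPM in replicate 1 and 37.2% in replicate 2, chiefly Hdac4-204 and Hdac4-207, 407 and 410 bases long. The table made directly from the reads listed Hdac4-204 and Hdac4-207 at 0 in both libraries. Coding transcripts, partial ones included, held 9.26 TPM of Hdac4 in replicate 1 and 9.79 TPM in replicate 2. Those of Hdac5 held 9.59 TPM (replicate 1) and 10.4 TPM (replicate 2), so the 2 genes overlapped. In the reads-based table coding transcripts held 72.2% (replicate 1) and 80.0% (replicate 2) of the 25.3 and 21.9 TPM of Hdac4. For Hdac5 they held 44.4% (replicate 1) and 44.3% (replicate 2) of 31.7 and 33.6 TPM, so Hdac4 lay above Hdac5 there. Over full-length coding transcripts alone Hdac5 lay above in that table, at 13.7 TPM (replicate 1) and 14.4 TPM (replicate 2). Hdac4 held 9.22 TPM (replicate 1) and 8.88 TPM (replicate 2).

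**Figure D2:**
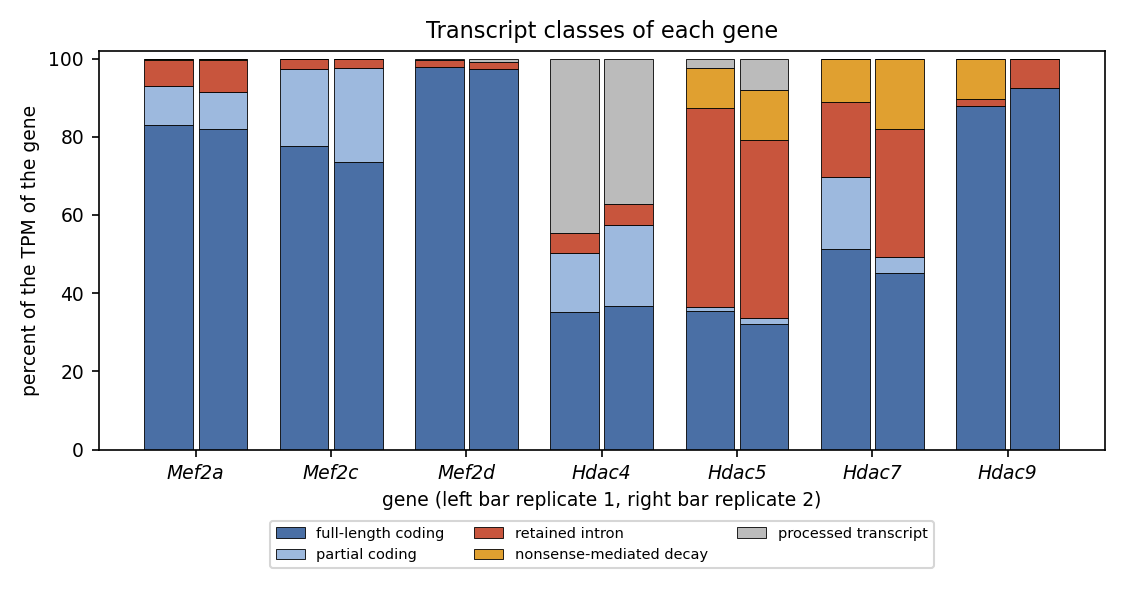
Percent of each gene's TPM in 5 classes of annotated transcript, from the alignment-based table, left bar replicate 1 and right bar replicate 2, for the 7 genes detected. Full-length coding transcripts take 98.0% (replicate 1) and 97.2% (replicate 2) of Mef2d but only 35.4% (replicate 1) and 32.0% (replicate 2) of Hdac5, where retained introns (red) are the largest class.

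The 3 expressed MEF2 genes chose differently within the exon pair. The shares below are of the summed TPM of all transcripts that join the exons on both sides, so they rest on whole transcripts and not on reads over the exon itself. Mef2a carried the first exon in 76.6% (replicate 1) and 79.3% (replicate 2). Mef2d carried the first exon in 72.5% (replicate 1) and 71.2% (replicate 2). Mef2c carried the second exon in 77.3% (replicate 1) and 78.9% (replicate 2), and the first exon in 16.6% (replicate 1) and 16.4% (replicate 2). Mef2a and Mef2d therefore shared a preference that Mef2c did not have, in both libraries and both kinds of transcript table.

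In the table made directly from the reads, Mef2a carried the first exon in 73.8% (replicate 1) and 75.7% (replicate 2), Mef2d in 72.5% (replicate 1) and 70.2% (replicate 2), and Mef2c in 19.8% (replicate 1) and 19.0% (replicate 2). The Mef2c transcripts with the first exon were mainly partial ones, Mef2c-231 and Mef2c-205 in the alignment-based table and Mef2c-205 in the reads-based table. By counts the first exon of Mef2c was in 3.39% of these transcripts in replicate 1 and 4.31% in replicate 2.

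The beta exon was common in Mef2a, less common in Mef2d and rare in Mef2c. By TPM, Mef2a included it in 72.8% (replicate 1) and 75.7% (replicate 2). Mef2d included it in 13.8% (replicate 1) and 15.1% (replicate 2). Mef2c included it in 0.872% (replicate 1) and 1.71% (replicate 2), and in 3.54% (replicate 1) and 2.31% (replicate 2) in the other transcript table. The ranges of the 3 genes did not overlap in either table.

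**Figure D3:**
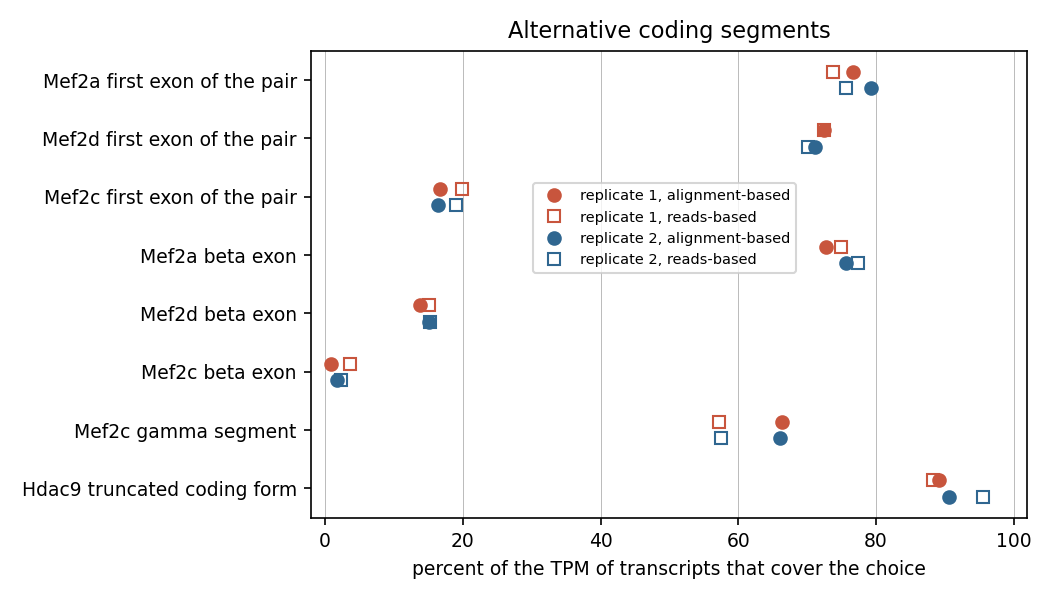
Percent of the TPM of transcripts covering each choice that carried the named segment, with replicate 1 (red) above replicate 2 (blue), circles from the alignment-based and squares from the reads-based transcript table. Mef2a and Mef2d lie between 70% and 80% for the first exon of the pair where Mef2c lies below 20%, and for the beta exon Mef2a stands apart from the other 2 factors.

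The leading transcripts tie these choices together. Mef2a-208 carries both the first exon and the beta exon and held 20.04 TPM (replicate 1) and 18.4 TPM (replicate 2). Mef2a-201, at 6.96 TPM (replicate 1) and 5.38 TPM (replicate 2), carries the second exon without the beta exon. The reads-based table gave Mef2a-201 no reads and listed Mef2a-203, which has the same coding length of 1476 bases, at 11.3 TPM (replicate 1) and 8.33 TPM (replicate 2). Mef2a-208 is 5538 bases long and Mef2a-201 is 2476, so a difference in length that lies mostly outside these exons enters the shares.

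Mef2d was spread over 4 full-length coding transcripts. Mef2d-201 held 27.8 TPM (replicate 1) and 28.0 TPM (replicate 2). Mef2d-202, the single annotated form with the second exon, held 17.6 TPM (replicate 1) and 19.1 TPM (replicate 2). Mef2d-204, with another C-terminal end, held 9.79 TPM (replicate 1) and 9.18 TPM (replicate 2), and Mef2d-203, the single form with the beta exon, held 8.81 TPM (replicate 1) and 9.99 TPM (replicate 2). GENCODE M21 holds no Mef2d transcript with both the second exon and the beta exon, so that combination could not be measured from these tables.

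**Figure D4:**
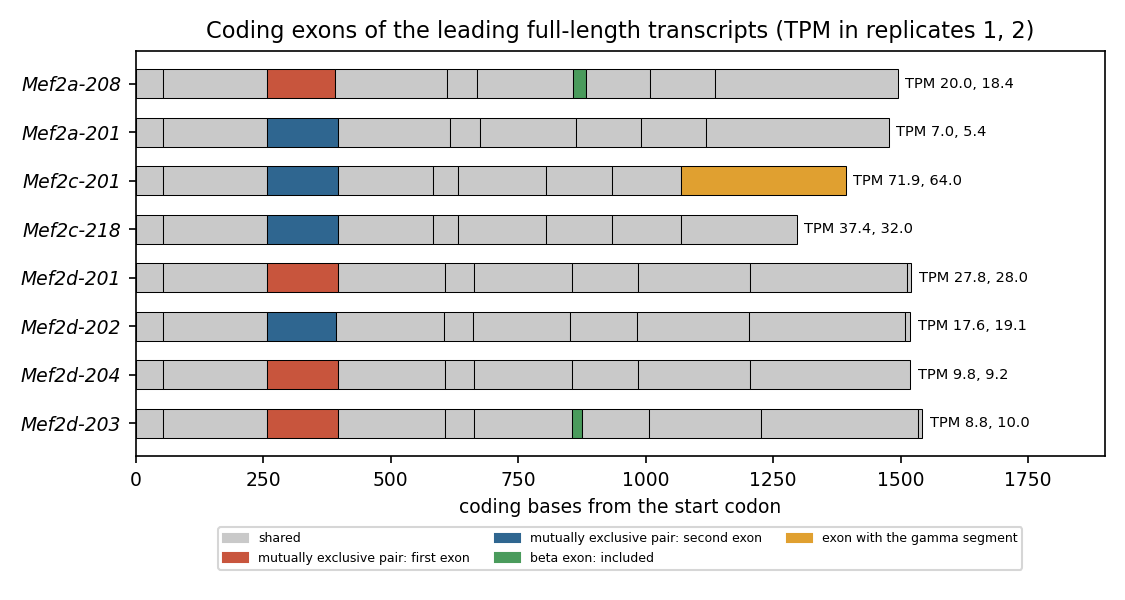
Coding exons of the leading full-length transcripts of Mef2a, Mef2c and Mef2d, drawn to scale in coding bases from the start codon, with TPM in replicates 1 and 2 at the right. The exon pair follows base 258 in all 3 genes, red for the first and blue for the second exon; the beta exon is green, and the last exon of Mef2c-201 (yellow) holds the gamma segment.

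Mef2c had a further choice at its last coding exon. Transcripts that start this exon at the upstream site hold 96 more coding bases, the gamma segment, known as a region that represses Mef2c activity. It is shown in capitals with 15 bases on each side.
Mef2c gamma segment, chr13:83662307-83662402, plus strand: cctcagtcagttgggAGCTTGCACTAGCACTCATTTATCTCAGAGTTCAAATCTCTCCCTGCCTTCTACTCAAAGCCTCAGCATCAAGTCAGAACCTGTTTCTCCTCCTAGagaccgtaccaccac

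By TPM, the gamma segment was included in 66.3% (replicate 1) and 66.1% (replicate 2), and in 57.2% (replicate 1) and 57.5% (replicate 2) in the reads-based table. Mef2c-201, with the segment, held 71.9 TPM (replicate 1) and 64.0 TPM (replicate 2), and Mef2c-218, without it, held 37.4 TPM (replicate 1) and 32.0 TPM (replicate 2). Both carry the second exon of the pair and lack the beta exon. Mef2c-201 is 6217 bases long and Mef2c-218 is 2589, and by counts the included share was 82.8% (replicate 1) and 82.5% (replicate 2). The libraries thus lay within 1 percentage point of each other under each way of counting, and the ways of counting lay further apart.

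Hdac9 RNA was mostly of the truncated kind. Hdac9 can end after its MEF2-binding part by reading past a splice site into the intron. The protein of that form lacks the deacetylase domain and is known as MITR. The bases that code only in that form, with the stop codon at their end, are given in capitals after 15 bases shared with the longer form.
Hdac9 truncated end, chr12:34373827-34373877, minus strand: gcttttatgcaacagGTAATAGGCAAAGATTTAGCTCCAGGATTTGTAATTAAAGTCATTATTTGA

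Truncated coding transcripts (Hdac9-201, Hdac9-203 and Hdac9-208, under 2000 coding bases) held 0.9 TPM (replicate 1) and 1.92 TPM (replicate 2). The 4 full-length forms, of 2808 to 3201 coding bases, held 0.11 TPM (replicate 1) and 0.2 TPM (replicate 2). The truncated share of these forms was 89.1% (replicate 1) and 90.6% (replicate 2). It leaves out Hdac9-210, annotated for nonsense-mediated decay, which has 2925 coding bases. Hdac9-210 held 0.12 TPM (replicate 1) and 0 TPM (replicate 2). In the reads-based table it held 0.270 TPM (replicate 1) and 0.322 TPM (replicate 2). The full-length forms held 0.159 TPM (replicate 1) and 0.137 TPM (replicate 2) there. The truncated forms had 98.4 counts in replicate 1 and 192 in replicate 2, and the full-length forms 26.5 counts (replicate 1) and 34.0 counts (replicate 2). The full-length value therefore rests on few reads. Hdac9-201, the leading transcript, held 0.66 TPM (replicate 1) and 1.08 TPM (replicate 2).

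Hdac4 differed in its untranslated end. Hdac4-202 and Hdac4-201 both have 3228 coding bases, with 3′ untranslated regions of 4568 and 590 bases. Hdac4-202 led at 5.36 TPM (replicate 1) and 4.56 TPM (replicate 2), and Hdac4-201 held 1.1 TPM (replicate 1) and 1.7 TPM (replicate 2). Hdac4 is a known target of the muscle microRNAs miR-1 and miR-206, which share a seed. The RefSeq sequence (GRCm38.p6) of miR-206 is shown with its seed, bases 2 to 8, in capitals. Its gene arm lies at chr1:20679055-20679076, plus strand.
mmu-miR-206-3p: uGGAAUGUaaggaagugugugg
The 7-base complement of the seed, ACATTCC, searched on the transcript strand, occurred once in the longer region, at its base 3281, and not in the shorter one. It is in capitals below.
Hdac4-202 seed match: ctttcctcagaACATTCCttcttcactgg
A match is common at this length. Of 757 genes whose leading coding transcript had a 3′ untranslated region at least as long, 26.3% held ACATTCC within the same 4568 bases. The Mir206 row had 0 counts in both libraries, so the microRNA itself was not measured here.

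Hdac7 had no dominant transcript. Hdac7-202 held 0.78 TPM (replicate 1) and 0.66 TPM (replicate 2), Hdac7-204 held 0.65 TPM (replicate 1) and 0.52 TPM (replicate 2), and the retained-intron transcript Hdac7-211 held 0.44 TPM (replicate 1) and 1.03 TPM (replicate 2). At 365 counts (replicate 1) and 460 counts (replicate 2) over 13 transcripts the assignment was weak, with a posterior SD of 30.02 counts on the 97.9 of Hdac7-202 in replicate 1. Slc48a1, a haem transporter gene overlapping Hdac7 on the opposite strand, had 902 counts (replicate 1) and 985 counts (replicate 2). The sources used here do not state that counting used strand, so reads of the 2 genes may not be fully separated.

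Differences between the 2 libraries were under 2-fold for the 7 detected genes with TMM scaling, and largest for Hdac9. The log2 ratio of replicate 1 over replicate 2, from expected counts scaled by TMM, was 0.15 for Mef2c, 0.14 for Mef2a, 0.11 for Hdac4, -0.03 for Mef2d, -0.17 for Hdac5, -0.26 for Hdac7 and -0.75 for Hdac9. None of the 7 genes that averaged 100 counts or more was over 2-fold apart, beside 3.3% of all 9996 genes at that depth and 3.19% of the protein-coding ones. In 1.21% of the 9996 the level in replicate 1 was over 2-fold higher, and in 2.09% it was over 2-fold lower. Being under 2-fold was thus the common state of a gene and marks nothing particular to these. The size of the ratio was below 0.25 for 5 of the 7, where 66.7% of all genes lay below it. The exact counting interval of the ratio excluded equality for 6 of the 7, the exception being Mef2d at 0.977 (0.945 to 1.01). This interval narrows as counts rise, and for Mef2c it excluded equality at a ratio of only 1.11 (1.09 to 1.13). The share of all genes with such an interval is not given, so the count of 6 marks nothing particular to these genes.

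Hdac9 was the furthest apart. Its scaled count in replicate 1 was 0.593 times that in replicate 2, with an exact counting interval of 0.478 to 0.733. Of the 9996 genes, 5.87% were further apart, in either direction. Scaled to spike-in RNA, the median of all genes moved by about the same amount as each member, to -0.38. Over all 9996 genes, 585 were then over 2-fold apart, 66 of them higher and 519 lower in replicate 1. All 7 members were lower in replicate 1, and Hdac9 passed 2-fold at -1.14. The direction for Mef2a, Mef2c and Hdac4 therefore depended on the scaling.

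The libraries were unlike in other respects. Mitochondrial genes took 9.39% (replicate 1) and 17.5% (replicate 2) of all counts. Of 12 slow fibre genes, 11 had enough counts, and all 11 were lower in replicate 1 by more than 2-fold, also with spike-in scaling. Myh7, the slow myosin heavy chain, had 28.1 counts in replicate 1 against 61949 in replicate 2, and Myl2, its light chain, had 4 counts in replicate 1 against 10923 in replicate 2. The ratios of the slow list had a median of -8.14 on the log2 scale, beside 0.01 over all genes.

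**Figure D5:**
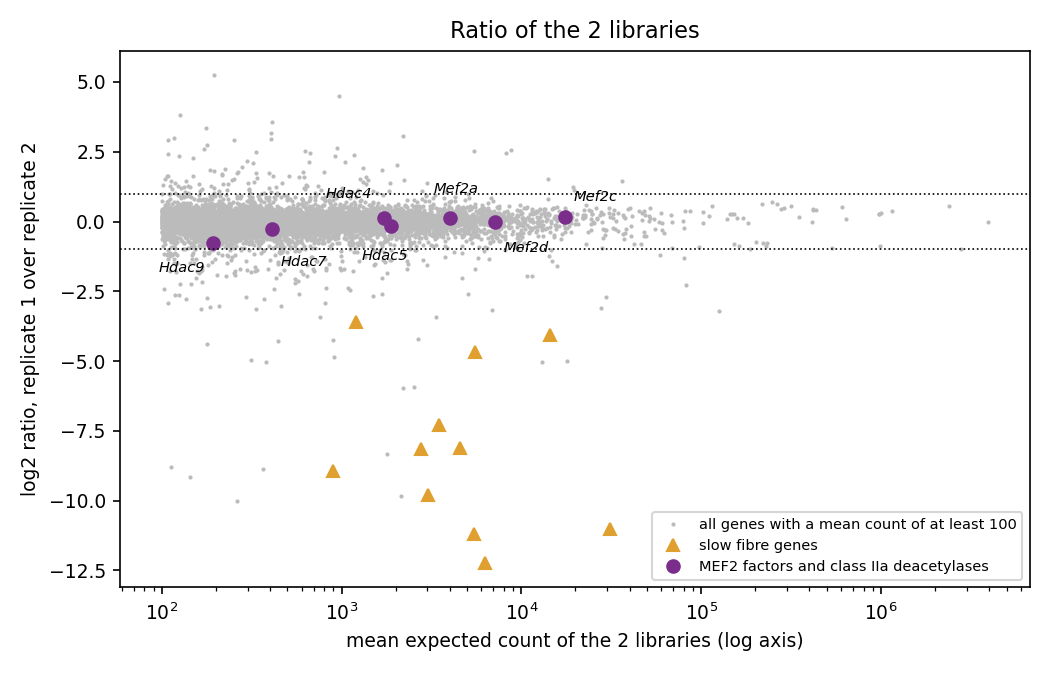
Log2 ratio of replicate 1 over replicate 2 against mean expected count (log axis) for the 9996 genes that averaged 100 counts or more; dotted lines mark 2-fold. The 7 MEF2 and class IIa genes (purple) lie between 0.15 and -0.75, and the 11 slow fibre genes (triangles) at or below -3.58.

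Known MEF2 target genes were mixed. Of 19 such genes, all had enough counts and 6 were over 2-fold lower in replicate 1, with 0 over 2-fold higher, beside 2.09% lower and 1.21% higher among all genes, and the median log2 ratio of the 19 was -0.16. Of these 6 genes, Myh7, Myl2, Tnnc1 and Tnni1 are also on the slow list, which shares 4 genes, or 21.1% of the target list and 33.3% of its own. The other 2 were Mb, myoglobin, at 41.5 TPM (replicate 1) and 1324 TPM (replicate 2), and Ppargc1a, the coactivator PGC-1alpha, at 8.09 TPM (replicate 1) and 23.5 TPM (replicate 2). The 15 target genes outside the slow list, with 2 over 2-fold apart, had a median of 0.03. Among them Ckm, muscle creatine kinase, stood at 23121 TPM (replicate 1) and 16462 TPM (replicate 2), and Pfkm, muscle phosphofructokinase, at 1010 TPM (replicate 1) and 1009 TPM (replicate 2). Protein, phosphorylation and location of the factors were not measured.

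Most genes around the switch were detected. The 7 lists were of kinases, 14-3-3 proteins, corepressors, MEF2 activators, the HDAC4 axis, other deacetylases and splicing regulators. Of their 66 genes, 60 were detected and 59 had enough counts, where 45.2% of all protein-coding genes were detected. The lists were chosen with earlier results of these data known, so the shares detected here and below are no result about the switch. None of the 59 was over 2-fold apart, beside 3.3% of all genes. Their log2 ratios ran from -0.87 for Myh3, the embryonic myosin heavy chain, to 0.73 for Trim63. With spike-in scaling 1 of the 59 was over 2-fold apart.

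Among 14 kinases that act on class IIa deacetylases or on their kinases, 12 were detected. Camk2a, the alpha subunit of calcium-calmodulin kinase II, stood highest at 203 TPM (replicate 1) and 143 TPM (replicate 2). It was followed by Camk2g at 70.6 TPM (replicate 1) and 67.3 TPM (replicate 2), by Stk11, the kinase that activates AMP-activated and salt-inducible kinases, at 53.0 TPM (replicate 1) and 53.1 TPM (replicate 2), and by Prkaa2, a catalytic subunit of AMP-activated kinase, at 51.0 TPM (replicate 1) and 50.4 TPM (replicate 2). Prkd1, a protein kinase D gene, stood at 0.77 TPM (replicate 1) and 0.58 TPM (replicate 2) and Camk4 at 0.06 TPM (replicate 1) and 0.17 TPM (replicate 2). Of 7 genes for 14-3-3 proteins, 6 were detected, led by Ywhae at 228 TPM (replicate 1) and 206 TPM (replicate 2) and Ywhag at 116 TPM (replicate 1) and 116 TPM (replicate 2).

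All 10 corepressor genes were detected. Ctbp1, a corepressor that binds class IIa deacetylases, stood at 81.2 TPM (replicate 1) and 85.8 TPM (replicate 2). Ncor1 stood at 47.7 TPM (replicate 1) and 46.7 TPM (replicate 2), and Hdac3, the active enzyme of that complex, at 20.8 TPM (replicate 1) and 19.1 TPM (replicate 2). Of the 6 other deacetylases Hdac2, a class I enzyme, was highest at 22.2 TPM (replicate 1) and 20.2 TPM (replicate 2). Hdac5 thus lay above each of them in the gene table, but not in the reads-based table. There Hdac2 stood at 45.1 TPM (replicate 1) and 40.4 TPM (replicate 2), and Hdac5 at 31.7 TPM (replicate 1) and 33.6 TPM (replicate 2).

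Of 16 activators and coactivators of MEF2, 15 were detected. The catalytic and regulatory calcineurin genes Ppp3ca, Ppp3cb and Ppp3r1 led with 72.9, 71.5 and 66.4 TPM in replicate 1 and 59.4, 62.1 and 57.3 TPM in replicate 2. Myf6, a myogenic factor of mature fibres, stood at 52.0 TPM (replicate 1) and 48.5 TPM (replicate 2). Of 8 genes of the HDAC4 axis of denervated muscle, 6 were detected. The ubiquitin ligase gene Trim63 stood at 157 TPM (replicate 1) and 94.6 TPM (replicate 2), and the embryonic acetylcholine receptor subunit Chrng had 4 counts in replicate 1 and 2 in replicate 2. All 5 splicing regulators known to act on Mef2 exons were detected, with Mbnl1 at 207 TPM (replicate 1) and 188 TPM (replicate 2), Rbfox1 at 96.4 TPM (replicate 1) and 76.3 TPM (replicate 2), Rbfox2 at 20.4 TPM (replicate 1) and 24.8 TPM (replicate 2) and Celf1 at 17.2 TPM (replicate 1) and 19.6 TPM (replicate 2).

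Whole muscle holds other cells that make some of these genes, and in bulk RNA fewer cells of a type and less RNA per cell cannot be told apart. All 8 muscle fibre markers were detected, with Acta1, skeletal actin, at 26410 TPM (replicate 1) and 21414 TPM (replicate 2). The 10 fast fibre genes had log2 ratios from 0.25 to 0.62, and with spike-in scaling 7 of the 10 were still higher in replicate 1. The 12 endothelial markers, which matter for Mef2c and Hdac7, were all detected and summed to 98.1 TPM (replicate 1) and 97.2 TPM (replicate 2). With TMM scaling 4 of the 12 were higher and 8 were lower in replicate 1, with a median log2 ratio of -0.08. Vwf was over 2-fold higher in replicate 1, at 10.4 TPM (replicate 1) and 5.31 TPM (replicate 2). Kdr was the furthest apart in the other direction, at a log2 ratio of -0.95. With spike-in scaling 0 of the 12 were over 2-fold higher and 1 was over 2-fold lower.

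The 12 thymocyte and T cell markers summed to 0.2 TPM (replicate 1) and 11.4 TPM (replicate 2). Rag1 had 0 counts (replicate 1) and 289 counts (replicate 2), Lck 0 counts (replicate 1) and 79 counts (replicate 2), Cd8a 1 count (replicate 1) and 123 counts (replicate 2), and Ptcra 0 in both. Hdac7, with 365 counts (replicate 1) and 460 counts (replicate 2), was also lower in replicate 1, and the part of these cells in that was not tested. Fat cell markers summed to 370.7 TPM (replicate 1) and 114 TPM (replicate 2) with 6 of 7 over 2-fold higher in replicate 1, and Schwann cell markers to 124 TPM (replicate 1) and 37.9 TPM (replicate 2) with 5 of 5. Smooth muscle and pericyte markers summed to 106 TPM (replicate 1) and 110 TPM (replicate 2) and macrophage markers to 31.5 TPM (replicate 1) and 33.2 TPM (replicate 2), with none over 2-fold apart. With spike-in scaling 6 fat cell and 3 Schwann cell markers were over 2-fold higher and 1 smooth muscle or pericyte marker was over 2-fold lower. The part of these cell types in the level of any member was not tested.

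Levels depended on the way reads were quantified. The reads-based table gave higher TPM than the gene table for all 7 detected members, as it did for 97.5% of detected coding genes. The ratio of the reads-based to the gene-table value ran from 1.14 for Hdac5 to 1.60 for Mef2a, beside a median of 1.49 over 9950 coding genes. In it Mef2a stood at 53.5 TPM (replicate 1) and 45.0 TPM (replicate 2) and Hdac5 at 31.7 TPM (replicate 1) and 33.6 TPM (replicate 2), so that the pair no longer overlapped. The order of the other members was the same in both tables.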

How the data were processed

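Per the labels, total RNA from gastrocnemius was made into 2 libraries with spike-in RNA. The authors deposited gene and transcript tables with expected or estimated counts, TPM and FPKM, and a score, the posterior SD of each count, for how firmly reads were placed. Their README names GENCODE M21 and mm10. The quantification program is not given in the sources used here. Counts were rounded and scaled by TMM (edgeR 4.0.16, R 4.3.3), with a prior count of 0.5; DESeq2 1.42.0 size factors were an alternative. A gene was called when its libraries, averaging 100 counts or more, were over 2-fold apart, and detected when both reached a TPM of 1. Intervals of ratios are exact (Clopper-Pearson, 95%). Ratios and intervals were tested on data simulated with counting error only. That test cannot show how the intervals hold where libraries vary in other ways. Sequences were read from GENCODE M21 transcripts and RefSeq, and exons aligned with biopython 1.88. Genes named are all members, their leading transcripts, and from each of 18 lists up to 4 of the highest, those over 2-fold apart and those at 0; others were named after their values were seen. The members and lists were chosen with earlier results of these data known. The effect of castaneus alleles on alignment was not tested. Some items are not reported here.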

Additional observations from a re-analysis of the deposited data

How the results depend on the processing

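No paired analysis was possible because there is 1 group. Of 112 alternative values, 67 stayed within a set limit and 45 moved. The limit was the spread between the libraries, except for log2 ratios, where it was the counting interval, and for counts, where it was 1.5 times. Changes of sign were counted only for values over 2-fold apart. With TMM scaling 0 members were that far apart, so none could be counted. The smaller log2 ratios of Mef2a, Mef2c and Hdac4 did change sign with spike-in totals. Leaving out 1 of 2 libraries gives the value of the other and tests no stability. In the reads-based table the MEF2 genes summed to 357 TPM and the class IIa genes to 64.5 TPM, Hdac5 held 50.7% of class IIa TPM, the first exon of Mef2a 74.7%, the Mef2c beta exon 2.92%, the gamma segment 57.4% and truncated Hdac9 91.9%. Rescaled over nuclear protein-coding genes, the sums were 568 TPM for MEF2 and 123 TPM for class IIa. As shares of counts, Mef2c held 61.2% of its family, Hdac5 44.5% and Hdac4 41.2% of theirs, the first exon 87.8% in Mef2a and 86.5% in Mef2d, the second exon of Mef2c 92.4%, the beta exon 86.7% in Mef2a and 7.02% in Mef2d, the gamma segment 82.7% and truncated Hdac9 81.9%. Over protein-coding transcripts only, Hdac5 held 42.3% and Hdac4 40.4%. Over all genes, 330 of 9996 were over 2-fold apart, 585 with spike-in totals, 1159 of 14996 where the mean count reached 10, and 6718 of 23937 with no filter. With spike-in totals 1 member, Hdac9, was over 2-fold apart. Depth limits Mef2b, Hdac9 and the transcripts of Hdac7. Exon shares rest on annotated transcripts that differ in length, so TPM and counts weigh them differently.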
